A study of Homo sapiens with 3 samples.

Results

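An mRNA has 3 regions: the 5' untranslated region (UTR), the coding sequence (CDS) and the 3' UTR. The clusters described here are PAR-CLIP clusters of human DICER, each a stretch of overlapping crosslinked reads, whose annotation in the deposited lists named 2 or more of these regions. A cluster belonged when it lay on an exon of a coding RefSeq transcript, did not name DICER1 itself, and carried no noncoding transcript on its strand. Of 16039 such mRNA exon clusters in 3 replicates, 1922 named 2 or more regions, and they are called boundary clusters below. They were split into 612 on the start side (5' UTR and CDS), 1207 on the stop side (CDS and 3' UTR) and 103 others (5' UTR and 3' UTR, or all 3 regions). The remaining 14117 clusters lay in 1 region.

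All 3 samples formed 1 group, PAR-CLIP with RNase T1 from FLAG:DICER Flp-In HEK293 T-Rex cells. No sample without RNase T1 or without the tag was compared. HEK293 is an established line from human embryonic kidney, and Flp-In T-Rex cells carry a transgene at 1 prepared genomic site. Every sample therefore carried the tagged DICER beside the DICER gene of the cell itself. In PAR-CLIP, a photoreactive uridine analogue in the RNA is crosslinked to the bound protein by ultraviolet light, and crosslinked sites read as T-to-C conversions. Separate cultures are not stated in the labels, so the p-values measure only the spread between these samples, which may be technical.

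DICER, an RNase III enzyme, releases microRNAs from their hairpin precursors in the cytoplasm, and mRNAs are not its classical substrates. On an mRNA the ribosome assembles at the start codon, where the 5' UTR ends, and is released at the stop codon, where the 3' UTR begins. A stretch of genome can be 5' UTR or 3' UTR in 1 transcript and coding in another, because promoters, splice sites and last exons differ between transcripts of a gene and because neighbouring genes can overlap. A cluster can thus name both regions with or without the codon between them.

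The lists held 11577, 18065 and 5099 clusters of any RNA in replicates 1, 2 and 3, with 1306125, 1060791 and 595487 conversions. Replicate 3 was the smallest and the most repeated, with 33.8 reads per distinct read, against 18.6 in replicate 1 and 17.8 in replicate 2. A further list for the whole series, limited to places with reads in 2 or 3 replicates, held 8469 clusters, of which 566 were boundary clusters. Of 15 marker genes of other cell types, 3 (CKM, NEFL and SYP) had any mRNA exon cluster and 0 had a boundary cluster. Over all 6335 genes with an mRNA exon cluster, 21.9% had a boundary cluster, so 3 genes are too few to read the 0. Gene positions are given in hg19, the build of the deposited clusters.

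The reference sequence is shown for the mRNAs in which 1 cluster covered both the transcription start and the start codon, because there the boundary lies within the cluster itself. The series-wide list held 29 such start-side clusters, 24 of them matched a RefSeq promoter entry by symbol, and 13 of these had an ATG within the first 50 transcribed bases. Of all 35116 RefSeq promoter entries, 40.2% had an ATG, read on the transcript strand only, in the same window. The 24 clusters were chosen because they covered both the transcription start and the start codon, which favours an ATG in this window. The comparison with 40.2% therefore shows nothing about the 13. The 6 with the most conversions follow as 30-base windows of RefSeq assembly GRCh38.p14, 5' to 3' on the strand of the transcript, with the first ATG in capitals. These are letters at the annotated start of the gene, and a match does not show which codon is used. The GRCh38.p14 positions were not converted to the hg19 positions of the clusters.
MAP2K4, chr17:12020877-12020906, plus strand: actcccaacaATGgcggctccgagcccgag
IL17RB, chr3:53846574-53846603, plus strand: cgcagtggcccggcgATGtcgctcgtgctg
YIF1B, chr19:38315903-38315932, minus strand: tggcggcggcgaaggATGcacccggcaggc
LDLRAD3, chr11:35944082-35944111, plus strand: ggagcggcggccgcgccATGtggctgctgg
HIST1H3D (now H3C4), chr6:26197237-26197266, minus strand: ggtttagaagttcgcaATGgctcgtaccaa
IAH1, chr2:9474552-9474581, plus strand: ccgcccggctgctccATGgcgctgtgcgag

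In these 6 genes the ATG followed 10 (MAP2K4), 21 (IL17RB), 30 (YIF1B), 37 (LDLRAD3), 36 (HIST1H3D) and 16 (IAH1) transcribed bases, all within the window that selected them. MAP2K4, a kinase that activates the JNK pathway, had 30 conversions in replicate 1 and no cluster at the place in replicate 3. Its 20 conversions at the place in replicate 2 lay outside boundary clusters. HIST1H3D, a replication-dependent histone H3 gene, had 14, 4 and 27 conversions in replicates 1, 2 and 3 and was the only 1 of the 6 with a cluster in every replicate. YIF1B, a protein of transport between the endoplasmic reticulum and the Golgi, had 3 conversions in replicate 2, 54 in replicate 3 and none in replicate 1. The clusters of IL17RB, a cytokine receptor, LDLRAD3, a membrane receptor, and IAH1, an esterase, were each present in 2 replicates, with 8 to 21 conversions.

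Boundary clusters made up nearly the same share of mRNA exon clusters in each replicate. They numbered 807 of 6570 in replicate 1, 903 of 7619 in replicate 2 and 212 of 1850 in replicate 3, which is 12.3%, 11.9% and 11.5% (mean 11.9% ± 0.412, SD, n = 3). Their share of the mRNA exon conversions was 12.7%, 12.0% and 11.8% (mean 12.2% ± 0.487, SD, n = 3). Of the conversions of all RNAs they held 1.33%, 0.790% and 0.853%. The boundary clusters thus carried conversions in proportion to their number within mRNA, and a small part of the DICER signal in all.

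The stop side held more clusters than the start side in every replicate. The start side had 254, 273 and 85 clusters in replicates 1, 2 and 3, or 3.87%, 3.58% and 4.59% of mRNA exon clusters, against 516, 577 and 114 on the stop side, or 7.85%, 7.57% and 6.16%. The difference, start side minus stop side, was -3.18 percentage points ± 1.40 (SD, n = 3), lower in 3 of 3 replicates (p = 0.25 in the exact sign-flip permutation, two-sided, and 0.75 after Benjamini-Hochberg adjustment over 6 tests). With 3 replicates this test cannot go below 0.25, so none of the 6 tests could pass 0.05. Measured against the neighbouring UTR, the order was the other way round. There were 46.4 ± 6.02 start-side clusters for every 100 clusters in the 5' UTR alone, against 13.95 ± 1.41 stop-side clusters for every 100 in the 3' UTR alone (SD, n = 3). The lengths of the regions were not used here, so neither figure is a density.

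Most boundary clusters did not hold the codon that divides their regions. On the start side, a start codon was annotated within 107 of 254, 90 of 273 and 31 of 85 clusters in replicates 1, 2 and 3, which is 42.1%, 33.0% and 36.5% (mean 37.2% ± 4.62, SD, n = 3). On the stop side, a stop codon was annotated within 118 of 516, 86 of 577 and 9 of 114 clusters, which is 22.9%, 14.9% and 7.89% (mean 15.2% ± 7.49, SD, n = 3). The start-side share was higher in every replicate, and the stop-side share was highest in replicate 1 and lowest in replicate 3. Cluster length moved with it, since boundary clusters had a median length of 34, 29 and 26.5 nt in replicates 1, 2 and 3, and its part in the codon share was not tested. When members were limited to those with an annotated codon, the difference, start side minus stop side, was 0.395 percentage points ± 0.802 of mRNA exon clusters (SD, n = 3). The counts were 107 against 118, 90 against 86 and 31 against 9, so the stop side was higher in replicate 1 and replicate 3 carried the value.

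The clusters without a codon fell into 3 kinds. The most frequent was a cluster that named 1 gene and was also annotated as intronic. It made up 30.4% ± 2.65 of the start side and 49.4% ± 2.83 of the stop side (SD, n = 3). Which transcript the intron belonged to was not checked. A further 12.5% ± 0.959 of the start side and 21.1% ± 1.57 of the stop side named several genes. The remaining 19.9% ± 2.76 and 14.3% ± 6.64 named 1 gene and no intron. Among the clusters in 5' UTR and 3' UTR or in all 3 regions, 80.0% ± 3.49 named several genes without a codon.

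**Figure D1:**
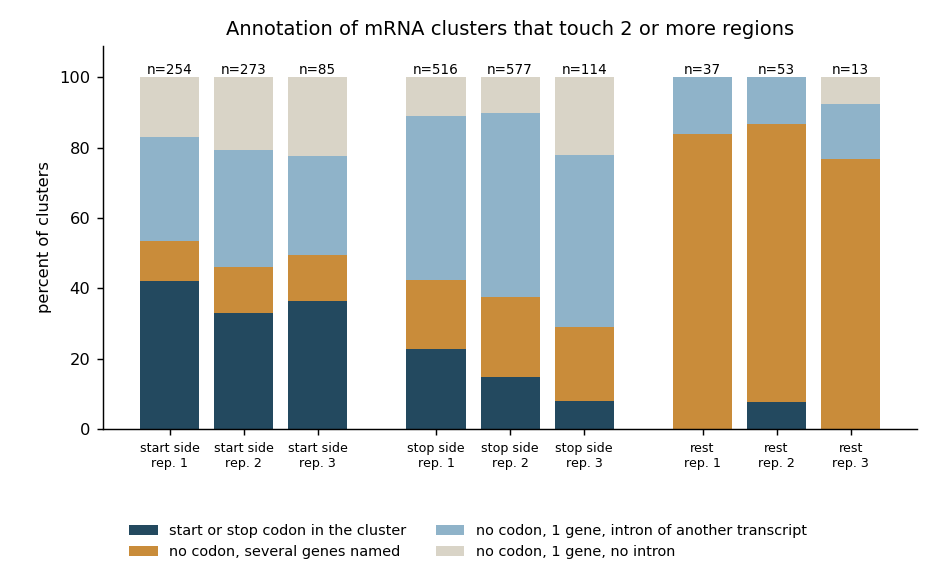
Stacked bars give the percent of boundary clusters of each kind for the start side, the stop side and the rest in each replicate (rep.), with the number of clusters above each bar. The dark part, clusters with an annotated start or stop codon, reaches 33.0% to 42.1% on the start side and 7.89% to 22.9% on the stop side. The intron label in the legend means an annotated intron, whose transcript was not checked.

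The annotation of boundary clusters differed from that of clusters in 1 region in several features that the choice of members did not name. An intron was annotated over 60.0%, 69.2% and 61.8% of boundary clusters in replicates 1, 2 and 3, against 9.995%, 10.9% and 10.4% of clusters in 1 region. More than 1 gene was named at 22.3%, 25.8% and 22.6% of boundary clusters, against 5.92%, 5.63% and 5.56%. A read-through gene, whose symbol joins those of neighbouring genes, was named at 4.83%, 5.76% and 6.13% of boundary clusters, against 1.01%, 0.789% and 0.549%. As in some features given below, the groups did not overlap in any of these 3. These features are not independent of the choice of members, since each added transcript can add a region.

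Other features were closer. An antisense annotation stood at 29.2%, 27.4% and 25.5% of boundary clusters and at 23.9%, 23.0% and 24.1% of clusters in 1 region. A repeat was named at 5.70%, 6.09% and 7.55%, against 3.97%, 3.99% and 4.21%. Both features were more frequent at boundary clusters in each replicate, by smaller margins than intron or several genes. A splice site was named at 3.97%, 3.65% and 4.72%, against 2.43%, 2.55% and 1.89%. Transcription starts stood at 4.34%, 4.87% and 4.72%, against 2.67%, 2.74% and 2.87%. The groups did not overlap in antisense, repeat, splice site or transcription start either. They did overlap in polyadenylation sites, at 2.97%, 2.88% and 1.42%, against 1.47%, 1.43% and 1.47%. A transcription start lay within 11.8%, 15.4% and 11.8% of start-side clusters, against 31.3%, 28.0% and 23.7% of clusters in the 5' UTR alone. A polyadenylation site lay within 4.46%, 3.99% and 2.63% of stop-side clusters, against 2.30%, 2.11% and 2.49% of clusters in the 3' UTR alone.

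Most clusters with an annotated codon named the 2 regions that it divides, as its meaning requires. All clusters are counted here, also those that the choice of members left out. Of all clusters with a start codon, 119, 108 and 35 in replicates 1, 2 and 3, 92.4%, 87.0% and 91.4% named both the 5' UTR and the CDS. Of those with a stop codon, 128, 98 and 12, the CDS and 3' UTR were both named at 94.5%, 93.9% and 83.3%. Start-side clusters with a start codon lay in the first exon of a RefSeq transcript in 71.0%, 68.9% and 71.0% of cases. Start-side clusters without one did so in 44.9%, 48.6% and 53.7%, so the first exon was less frequent there in each replicate.

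In conversions per cluster, boundary clusters were close to clusters in 1 region. The median was 12, 6 and 17 conversions in replicates 1, 2 and 3 at boundary clusters, against 13, 6 and 19. The difference in median log2 conversions, boundary minus 1 region, was -0.09 ± 0.08 (SD, n = 3), below 0 in 2 of 3 replicates and 0 in the third (p = 0.5 and adjusted p = 0.75 in the exact sign-flip permutation). Among clusters with at least 3 distinct reads it was 0.19, so its sign depends on that choice.

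Between the sides the gap was larger and in 1 direction. Start-side clusters had a median of 10, 5 and 15 conversions in replicates 1, 2 and 3, against 14, 6 and 20 on the stop side. The difference in median log2 conversions, start minus stop side, was -0.39 ± 0.11 (SD, n = 3), below 0 in 3 of 3 replicates (p = 0.25 and adjusted p = 0.75 in the exact sign-flip permutation). Each side was near the UTR it touches: clusters in the 5' UTR alone had medians of 10, 5 and 14, clusters in the CDS alone 12, 5 and 17, and clusters in the 3' UTR alone 14, 6 and 20. The rest had medians of 16, 5 and 18. With the codon-bearing members alone the difference between the sides was -0.45 ± 0.58 (SD, n = 3). Their medians were 11, 6 and 13 on the start side, against 13, 6 and 28 on the stop side. Replicate 2 showed no difference there, and the 28 comes from 9 clusters.

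Read support and size were close to those of clusters in 1 region. The median number of distinct reads was 2 in both groups in each replicate, a difference of 0 (p = 1 and adjusted p = 1 in the exact sign-flip permutation). At least 3 distinct reads were found in 47.3%, 29.7% and 11.3% of boundary clusters, against 46.2%, 27.8% and 9.34%. The median length was 34, 29 and 26.5 nt at boundary clusters, against 33, 29 and 27 nt, a difference of 0.167 nt ± 0.764 (SD, n = 3; p = 1 and adjusted p = 1 in the exact sign-flip permutation). At boundary clusters the strongest crosslink lay near the middle, at a median of 51.6%, 52.0% and 51.7% of the length from the 5' end. Clusters in 1 region were alike, at 52.5%, 51.4% and 53.6%. By their distinct reads, many boundary clusters thus rest on few separate molecules, above all in replicate 3.

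**Figure D2:**
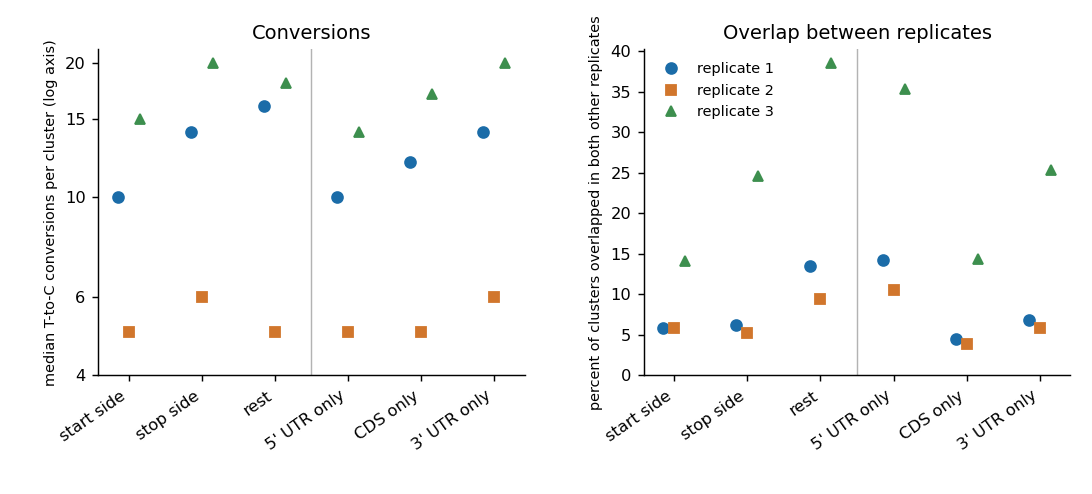
Left, median T-to-C conversions per cluster (log axis), and right, percent of clusters overlapped in both other replicates, with 1 point per replicate for the start side, stop side and rest and for clusters in 1 region. Start-side points sit at 10, 5 and 15 conversions, near those of the 5' UTR alone, and replicate 3 is highest in the right panel in every group.

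A small part of the boundary clusters recurred. Clusters overlapped, by at least 1 nt on the same strand, in both other replicates numbered 52, 51 and 45 in replicates 1, 2 and 3. That is 6.44%, 5.65% and 21.2% of boundary clusters, where 6.65%, 5.64% and 22.9% of all mRNA exon clusters were overlapped. Clusters in 1 region gave 6.68%, 5.64% and 23.1%. The difference, boundary minus 1 region, was -0.694 percentage points ± 1.01 (SD, n = 3), with 2 of 3 replicates below 0 (p = 0.5 and adjusted p = 0.75 in the exact sign-flip permutation). The difference was smaller than its spread between replicates.

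The sides and the single regions varied more. The start side was overlapped at 5.91%, 5.86% and 14.1%, against 6.20%, 5.20% and 24.6% for the stop side. The rest reached 13.5%, 9.43% and 38.5%, from 37, 53 and 13 clusters. Clusters in the 5' UTR alone were overlapped at 14.3%, 10.5% and 35.4%, those in the CDS alone at 4.47%, 3.87% and 14.3%, and those in the 3' UTR alone at 6.82%, 5.79% and 25.4%. In each replicate the start side stood below the 5' UTR and nearer to the CDS.

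Where a boundary cluster was found again, it usually named 2 regions there too. Of 807 boundary clusters of replicate 1, 226 were overlapped by a cluster of any RNA in replicate 2 and 207 of these by a boundary cluster. The 3 replicates taken in pairs, in both directions, gave 87.1% to 98.5%. In every one of these cases the side was the same as well. The annotation belongs to the genome position, so this describes the lists and is not a separate measurement.

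Of 566 boundary clusters in the series-wide list, 44 (7.77%) overlapped a boundary cluster in each of the 3 replicates. For all mRNA exon clusters the count was looser, with any mRNA exon cluster at the place, and gave 9.66%. When any cluster in each replicate counted, the shares were 9.72% of boundary clusters and 10.1% of clusters in 1 region. The 44 were 12 of 191 on the start side, 27 of 345 on the stop side and 5 of 30 of the rest, and 8 of them held a codon in the series-wide list, some of these in only part of the replicates. Replicate 1 had the most conversions at 24 of the 44. These counts are not scaled, and replicate 1 also had the most mRNA exon conversions in all (136356, against 70077 and 42959 in replicates 2 and 3).

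On the start side, RPS19 stood first. Its product is a protein of the small ribosomal subunit that is mutated in Diamond-Blackfan anaemia. The cluster spanned 42373101 to 42373153 on the plus strand of chromosome 19, in exon 4 of a RefSeq transcript. It held 314, 194 and 97 conversions in replicates 1, 2 and 3, from 32, 30 and 4 distinct reads. As a share of all mRNA exon conversions this was 0.244% ± 0.0283 (SD, n = 3), so the replicates were close once scaled. A start codon was annotated within the cluster in replicate 2 and in the series-wide list, and its transcript is not named. In replicate 1, RPS19 also had start-side clusters upstream, in exon 2 (from 42364888) and exon 3 (from 42365246). The annotated codon therefore need not be the main start codon of the gene. In replicate 1 (42373101 to 42373145) and replicate 3 (42373112 to 42373136) the cluster was shorter at its 3' end and held no annotated start codon.

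BABAM1, a subunit of the BRCA1-A DNA repair complex, had a cluster with an annotated start codon (chromosome 19, 17379770 to 17379828, plus strand). The cluster also named CTD-2278I10.6 and lay in exon 2 of a RefSeq transcript, and the transcript of the codon is not named. It held 171, 62 and 37 conversions, or 0.100% ± 0.0220 of the mRNA exon conversions (SD, n = 3). AAGAB, an adaptin-binding protein of vesicle traffic, had 27, 31 and 31 conversions at its cluster (minus strand of chromosome 15, 67528764 to 67528825 over the whole series). The cluster lay in exon 3 of a RefSeq transcript and held an annotated start codon in replicate 2 and not in replicates 1 and 3. HES4, a transcriptional repressor of the Notch pathway, had 27, 2 and 29 over its start codon and transcription start (chromosome 1, 935343 to 935372, minus strand). The first 2 of these genes had conversions of the same order in each replicate, whereas HES4 was low in replicate 2.

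The other 4 start-side clusters with the most conversions held no start codon. The cluster at LUC7L2, a splicing factor bound to U1 snRNP, also named its read-through with a neighbour and had 107, 3 and 89 conversions in replicates 1, 2 and 3. The cluster at C18orf32, also named with its read-through from RPL17, had 9, 61 and 60. Each of the pair was low in a single replicate, replicate 2 for LUC7L2 and replicate 1 for C18orf32. GSTZ1, an enzyme of tyrosine breakdown, had 44, 16 and 23 conversions. CFL1, the actin-severing protein cofilin, had 47, 7 and 17, and the clusters of both genes were also annotated as intronic.

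On the stop side, SEPT11 (now SEPTIN11), a GTP-binding protein of septin filaments, had the most conversions of all boundary clusters in the series-wide list. Its cluster lay on the plus strand of chromosome 4, from 77957268 to 77957311, and held 870, 318 and 274 conversions from 27, 27 and 16 distinct reads, or 0.577% ± 0.106 of the mRNA exon conversions (SD, n = 3). It held no stop codon and was also annotated as intronic. The conversions lay at 2 positions of the 44 nt.

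BIRC5 and AURKB ranked after SEPT11 and MAZ, with 672 and 553 conversions in the series-wide list. Their products, survivin and Aurora kinase B, are both subunits of the chromosomal passenger complex of mitosis. BIRC5 (plus strand of chromosome 17, 76219670 to 76219708) had 536, 138 and 141 conversions, or 0.306% ± 0.0999 of the mRNA exon conversions. AURKB (chromosome 17, 8108219 to 8108286, minus strand) had 362, 163 and 182 conversions, or 0.307% ± 0.102 (SD, n = 3 each). Each named 1 gene, no intron and no stop codon, and replicate 1 was the highest in both counts. The mitotic role they share was seen after the genes had been ranked, and no set was tested.

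MAZ, a zinc finger transcription factor, had the longest boundary cluster, 176 nt across a stop codon in replicate 1 and in the series-wide list (chromosome 16, plus strand, 29821525 to 29821700). Boundary clusters at this place held 862, 151 and 26 conversions in replicates 1, 2 and 3, from 105, 36 and 7 distinct reads. In replicate 2, 147 of the conversions lay in a cluster without a stop codon (29821584 to 29821672) and 4 in a cluster with one (29821547 to 29821570). The cluster of replicate 3 (29821588 to 29821618) held none. The share was 0.303% ± 0.296 (SD, n = 3), a spread as wide as the mean, since replicate 1 was far above the others. LRFN4, a synaptic adhesion protein, had 158 and 59 conversions over its stop codon in replicates 1 and 2 (plus strand of chromosome 11, 66627810 to 66627861 over the whole series). Its cluster in replicate 3, with 7 conversions (66627816 to 66627839), held no stop codon. UBB, a polyubiquitin gene outside the 8 first-ranked stop-side clusters and named as the last of the 3 with a stop codon, had 63, 10 and 39 over its stop codon in replicates 1, 2 and 3 (chromosome 17, 16285895 to 16285938, plus strand). UBB has near-identical ubiquitin copies, so its reads may be shared.

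A further 3 stop-side clusters held no stop codon. PPP1CC, a catalytic subunit of protein phosphatase 1, had 129, 84 and 28 conversions in replicates 1, 2 and 3. PFDN1, a subunit of the chaperone prefoldin, had 67, 110 and 61. ZFP91, a zinc finger protein with ubiquitin ligase activity, was named with its read-through into CNTF and had 128, 20 and 15. PFDN1 was the only 1 of the 8 first-ranked stop-side clusters with its highest count in replicate 2.

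The rest held 5 recurring clusters, of which 3 named several genes. The cluster that named DAGLB, a lipase, and KDELR2, a receptor that returns proteins to the endoplasmic reticulum, was annotated as 5' UTR and 3' UTR and had 64, 88 and 61 conversions (chromosome 7, 6501077 to 6501145, minus strand). The cluster at GNAS, which encodes the stimulatory G protein alpha subunit at an imprinted locus with several promoters, covered a transcription start and had 75, 7 and 29. TOR1AIP2, an activator of torsin ATPases, had 53, 29 and 13 conversions, or 0.0368% ± 0.00583 of the mRNA exon conversions (SD, n = 3), the narrowest spread relative to its mean among the 5. The cluster naming MINOS1, NBL1 and their read-through had 30, 5 and 67 conversions, and the cluster naming CDK11B and SLC35E2B had 19, 8 and 18.

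**Figure D3:**
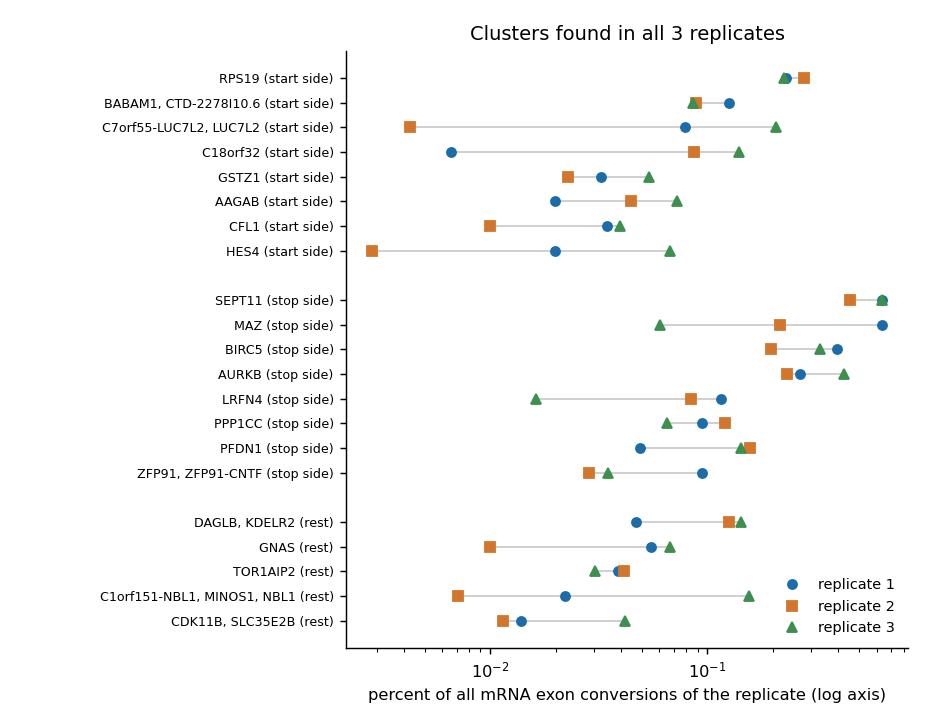
Percent of all mRNA exon conversions of a replicate (log axis) at each named cluster found in all 3 replicates, with 1 point per replicate joined by a line. RPS19 and SEPT11 have close points, while MAZ, HES4 and the LUC7L2 cluster spread over a wide range.

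Boundary clusters named 1388 of the 6335 genes with any mRNA exon cluster in a replicate (21.9%). Start-side clusters named 542 genes, stop-side clusters 852, and 68 genes had both. In all 3 replicates, 94 genes had a boundary cluster of any kind, 22 a start-side and 50 a stop-side cluster. Most genes were thus named in 1 or 2 replicates. How many of the 6335 genes had any mRNA exon cluster in all 3 replicates is not given here. Whether genes with boundary clusters differ in this is therefore not known.

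Some genes held runs of boundary clusters along 1 stretch. MDM4, an inhibitor of p53, had the most, with 10 clusters and 128 conversions in replicate 1, 8 clusters and 75 conversions in replicate 2, and none in replicate 3. All were on the stop side, without a stop codon, and also annotated as intronic, between 204518622 and 204526856 of chromosome 1. ENSA, an inhibitor of the phosphatase PP2A in mitosis, had 5, 4 and 1 stop-side clusters with 194, 64 and 85 conversions. ZNF793, a zinc finger gene, had 4, 5 and 1 stop-side clusters with 104, 84 and 66 conversions. In these genes several clusters were annotated as CDS, 3' UTR and intron together, and none of the clusters held a stop codon.

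In other genes the runs came from overlapping gene names. LUZP6 and MTPN, listed at the same place, had 6, 4 and 2 boundary clusters with 225, 51 and 26 conversions, most of them annotated as 5' UTR and 3' UTR. CPNE1, a copine, and RBM12, an RNA-binding protein, shared 7, 3 and 0 clusters with 128, 13 and 0 conversions. RBM14, RBM4 and their read-through shared 5, 4 and 1 clusters with 67, 38 and 17 conversions. A cluster with several names counts for each gene, so these values cannot be given to 1 of them.

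Gene lists of cell functions differed in how often their clusters were boundary clusters. Over all genes, 1922 of 16039 mRNA exon clusters in the 3 replicates were (12.0%), of which 445 held a codon and 461 named several genes. Ribosomal protein mRNAs had 59 boundary clusters of 191 (30.9%), 20 of them with a codon, in 30 of 56 genes. Mitochondrial respiratory chain mRNAs had 19 of 88 (21.6%), histone mRNAs 27 of 134 (20.1%) and cytoskeleton mRNAs 12 of 61 (19.7%). Proteasome mRNAs had 8 of 58 (13.8%), HNRNP and SR splicing factor mRNAs 20 of 181 (11.0%), translation factor mRNAs 16 of 174 (9.20%), chaperone and endoplasmic reticulum stress mRNAs 6 of 84 (7.14%) and glycolysis mRNAs 3 of 55 (5.45%). The lists were not tested against each other, and the lengths of their mRNAs were not used here.

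**Figure D4:**
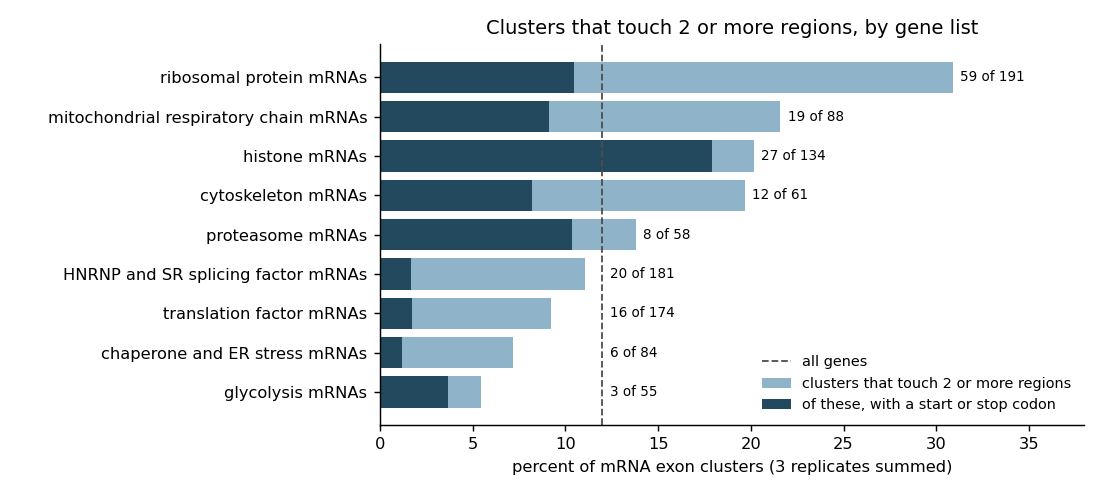
Bars give the percent of mRNA exon clusters of each gene list that were boundary clusters, summed over 3 replicates, with the dark part for those with a start or stop codon and the counts beside each bar. The dashed line marks all genes at 12.0%, and the histone bar is mostly dark.

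Histone mRNAs, which are short and mostly lack introns, had a codon in 24 of their 27 boundary clusters (88.9%), against 23.2% over all genes. HIST1H4B, a histone H4 gene, had a cluster of 133 nt over its stop codon in the series-wide list (chromosome 6, 26027126 to 26027258, minus strand). It had 219 conversions in replicate 1, 8 in replicate 2 and no boundary cluster in replicate 3. HIST1H4H, another histone H4 gene, had 59 and 46 conversions over its stop codon in replicates 1 and 2 and none in replicate 3. HIST1H3D had start-side clusters in all 3 replicates and a cluster of 43 conversions over its stop codon in replicate 2 (26197014 to 26197089). Histone genes have near-identical copies, and so do ribosomal protein genes through their pseudogenes, so reads may be divided between copies and the counts for both lists are uncertain.

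Among ribosomal protein mRNAs after RPS19, RPS29 had 129 conversions over its stop codon in replicate 1 (chromosome 14, 50050343 to 50050393, minus strand) and no boundary cluster in the others. RPS16 had both ends covered: over its stop codon 54 conversions in replicate 1 and 28 in replicate 3 (chromosome 19, 39923961 to 39924007, minus strand), and over its start codon 30 in replicate 1 (39926512 to 39926579). In these 2 genes the codon clusters were thus seen in 1 or 2 replicates.

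In the cytoskeleton list, TUBA1B, an alpha-tubulin, had 84 and 35 conversions over its stop codon in replicates 1 and 2 (chromosome 12, 49521725 to 49521757, minus strand), CFL1 is given above, and STMN1, the microtubule regulator stathmin, had 3 and 2 boundary clusters in the same replicates. In the proteasome list, PSMA5, a subunit of the core particle, had 24 and 14 conversions over its stop codon in replicates 1 and 2. PSMD3 of the regulatory particle had 28 on the start side in replicate 3, and PSMB1 had 14 over its stop codon in replicate 2. PKM, pyruvate kinase, had 23 and 14 over its stop codon in replicates 1 and 2, and the files list it under 2 names, PKM and PKM2. GPI, a glycolytic isomerase, had 3 in replicate 2.

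In the chaperone and stress list, XBP1 had 3 clusters within 29191198 to 29191492 of chromosome 22 on the minus strand. Its mRNA is known for unconventional splicing in the stress response, which shifts the reading frame. The clusters were on the stop side, named 1 gene, no intron and no stop codon, and had 23 and 19 conversions in replicate 1 and 12 in replicate 2. HSP90AA1, a cytosolic chaperone, had 21 over its stop codon in replicate 1, and CCT7, a chaperonin subunit, had 6 on the start side in replicate 2. None of the 3 genes had a boundary cluster in replicate 3.

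In the respiratory chain list, the subunits NDUFA11, NDUFA4 and NDUFB11 led. NDUFA4 had 25 and NDUFB11 had 21 conversions over their stop codons, in replicate 1 alone. NDUFA11 had 22 conversions in replicate 1 and 7 in replicate 2, in clusters that also named FUT5. No gene of this list had a boundary cluster in all 3 replicates.

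Boundary clusters of translation and splicing factors mostly carried the name of another gene, in 13 of 16 and 17 of 20. The name of EIF2B5, a subunit of the exchange factor for eIF2, stood at 4, 4 and 1 clusters with 18, 56 and 21 conversions. Each also named 1 of AP2M1, ABCF3, EIF4G1 or FAM131A. They were spread from 183901701 to 184053748 of chromosome 3, so the name alone does not place them in EIF2B5. EEF1G, an elongation factor subunit, had 20 in replicate 1. SRSF1, an SR protein of splicing, had 4, 6 and 1 clusters with 46, 41 and 8 conversions, of which 10 also named the transcript RP11-159D12.5. HNRNPL shared its clusters with ECH1 (2 and 3 clusters with 22 and 49 conversions in replicates 1 and 2), and HNRNPH2 shared its clusters with a read-through from RPL36A (23 and 4). Which gene the reads came from cannot be told from these clusters.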

How the data were processed

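The authors deposited 1 list of PAR-CLIP clusters per replicate and 1 series-wide list. Per the submitters' processing notes, the reads were handled with Bowtie2 2.1.0 and the hg19 build. For the cluster program, a version was not given in the sources used here. Each cluster has an estimated false discovery rate of 5%, and each replicate list covers 2 sequencing runs and was filtered by length, per the file attributes. Values are deposited counts: T-to-C conversions per cluster, not normalised to depth. The deposited entropy score was read and used for no result (0 in 1.40%, 64.6% and 80.6% of clusters in replicates 1, 2 and 3). Totals are of listed clusters, so sequencing depth is unknown, and reads are repeated, so counts overstate separate molecules.

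Members were chosen by annotation alone, from the deposited region, codon, intron and gene names. The members and gene lists were chosen with earlier results of these data known. Overlap meant 1 or more shared nt on 1 strand. Each replicate gave 1 value per measure, and 6 differences were compared with an exact sign-flip permutation, two-sided. The genes named were, for each side, up to 8 of the clusters found in all 3 replicates, ranked by conversions in the series-wide list, and up to 3 genes of each list with the most conversions. The genes with the most boundary clusters, and UBB, were added after their values had been seen. Of 1388 gene names, 1287 (92.7%) matched RefSeq symbols of GRCh38.p14. Alternatives were a minimum of 3 distinct reads, clusters at or above the median conversions, members with 1 gene and no intron, each replicate left out, the series-wide list, a 50% overlap and, chosen after seeing the data, members with a codon. Overlap, member choice and median differences were tested on simulated data. Python 3.11.15, numpy 2.4.6, pandas 2.3.3 and matplotlib 3.10.9 were used. An hg19 genome and transcript annotation were not used here, so sequences under the clusters, distances to codons and region lengths are not given.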

Additional observations from a re-analysis of the deposited data

How the results depend on the processing

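No test passed 0.05 under any setting, and 3 replicates could not. The share of mRNA exon clusters in boundary clusters (mean 11.9%) was 12.9% with at least 3 distinct reads, 4.79% for clusters with 1 gene and no intron, 12.7% in the series-wide list and 2.92% for members with a codon, and 11.7% to 12.1% with 1 replicate left out. Their share of conversions (12.2%) was 14.1%, 5.22%, 13.1% and 2.93% under the same 4 settings, and 11.9% to 12.3% with 1 replicate left out. The difference in share between start and stop side was -0.12 percentage points for clusters with 1 gene and no intron and 0.395 ± 0.802 (SD) with a codon, and -3.99 to -2.78 with 1 replicate left out. The difference in median log2 conversions between boundary clusters and clusters in 1 region was 0.19 with at least 3 distinct reads and 0 at or above the median conversions (-0.14 to -0.06 with 1 replicate left out); between the sides (-0.39) it kept its sign in 8 of 8 alternatives, at -0.71 with at least 3 distinct reads, -0.19 for clusters with 1 gene and no intron, -0.09 ± 0.12 (SD) at or above the median, -0.45 with a codon, and -0.45 to -0.34 with 1 replicate left out. The difference in distinct reads was 0.333 with a codon. The difference in length was 0 with at least 3 distinct reads and -0.25 nt to 0.5 nt with 1 replicate left out, -0.25 without replicate 1, against 1.67 nt ± 3.06 (SD) for members with a codon. The difference in overlap was 0.914 percentage points with at least 3 distinct reads and 0.323 at or above the median, against -3.61 ± 4.94 (SD) for clusters with 1 gene and no intron and -3.49 ± 6.22 (SD) for members with a codon. With 1 replicate left out, when overlap in the 1 other replicate counted, it was -3.44 to -0.855, the first without replicate 2. The cause of these changes was not tested. No paired analysis was possible because all samples form 1 group, so no 2 groups share replicate numbers, while each tested difference was taken within a replicate. Few distinct reads per cluster limit every value, most in replicate 3.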
